A study of Mus musculus with 18 samples.

Results

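The genes described here are 10 lymphoid chemokines, chemokine receptors, lymphotoxins and genes of high endothelial venules, followed in the lacrimal gland (LG), the exocrine gland that secretes the aqueous tear film. They are Cxcl13, Ccl19, Ccl21a, Cxcr5, Ccr7, Lta, Ltb, Glycam1, Madcam1 and Chst4, and they were picked by symbol out of the 54232 genes of a raw count table. The table came from bulk RNA-seq of whole LGs of male mice, with 3 mice in each of 6 groups. One strain was NOD.H-2b (NOD.B10Sn-H2b/J), a congenic model of Sjögren's syndrome that carries the b haplotype of the H2 complex on a NOD background, and the other was BALB/c (BALB/cJ), the healthy control. LGs were collected from untreated mice aged 2 months (2M), 4 months (4M) or 6 months (6M), and each library was made from 1 gland. BALB/c is an unrelated inbred strain and carries another H2 haplotype, so differences due to disease and differences due to genetic background cannot be told apart in the comparisons of the strains.

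These genes belong to the system that builds and maintains lymph nodes, and that is used again when lymphocytes settle in an inflamed gland as a tertiary lymphoid structure. CXCL13 draws B cells and follicular helper T cells that carry its receptor CXCR5 into follicles, while CCL19 and CCL21 draw T cells and mature dendritic cells that carry CCR7 into the T cell zone. Lymphotoxin alpha and lymphotoxin beta, made by lymphocytes, form a membrane ligand for the lymphotoxin beta receptor on stromal and endothelial cells, which signals through the non-canonical NF-κB pathway and its subunit RelB. High endothelial venules are the vessels through which lymphocytes leave the blood. GlyCAM-1 is a mucin-like carrier of the sulfated homing ligand made there, CHST4 is the sulfotransferase that puts the sulfate on this ligand, and MAdCAM-1 is the addressin of mucosal venules that binds the integrin α4β7.

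Each mouse gave between 49480781 and 103936830 counts, the highest total being that of BALB/c 6M replicate 1. On these raw totals, a gene without any count could make up as much as 0.0289 to 0.0606 CPM (counts scaled to a library of 1000000 counts), depending on the library, at a floor of 3 counts. The other CPM values also use normalization factors (TMM) of 0.8549 to 1.298, and a factor below 1, as in every BALB/c library, raises this limit. This limit covers counting error only. The tissue label was checked with 9 epithelial genes of the LG, whose summed level lay between 46600 and 77100 CPM in all 18 mice. Of 5 milk protein genes, looked at because Glycam1 is also made in the mammary gland, the summed level was at most 0.21 CPM. The markers of lymphocytes differed between the strains and between mice of one group, and their values are given beside the results they move with.

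The promoter sequences of 4 genes are shown first, because Cxcl13, Ltb and Glycam1 are the chemokine, lymphotoxin and venule gene with the highest levels per length at 6M, and because Madcam1 shares letters with Ltb. They are the bases just before the RefSeq start of transcription in the reference genome (GRCm38.p6), not the sequences of the mice studied, and are printed 5′ to 3′ on the strand of the gene. RefSeq promoters were matched for 8 of the 10 genes, all but Cxcr5 and Ccr7. Capitals mark matches on either strand to GGGNNNNNCC, a general form of the NF-κB site, and also to GGAGATTTG, letters of the site bound by RelB with p52. Cxcl13 is shown at chr5:95956689-95956938 on the plus strand, Ltb at chr17:35194257-35194438 on the plus strand, ending where the GENCODE gene begins, Madcam1 at chr10:79664309-79664558 on the plus strand and Glycam1 at chr15:103565082-103565331 on the minus strand.
Cxcl13: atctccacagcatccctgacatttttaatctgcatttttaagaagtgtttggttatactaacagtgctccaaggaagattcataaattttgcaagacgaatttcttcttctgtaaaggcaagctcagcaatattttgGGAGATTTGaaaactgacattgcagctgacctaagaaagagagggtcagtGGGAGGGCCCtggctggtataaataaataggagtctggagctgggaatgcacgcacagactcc
Ltb: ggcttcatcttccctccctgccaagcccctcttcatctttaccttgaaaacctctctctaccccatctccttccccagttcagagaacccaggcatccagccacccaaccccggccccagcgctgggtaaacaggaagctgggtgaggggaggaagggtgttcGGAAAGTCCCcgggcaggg
Madcam1: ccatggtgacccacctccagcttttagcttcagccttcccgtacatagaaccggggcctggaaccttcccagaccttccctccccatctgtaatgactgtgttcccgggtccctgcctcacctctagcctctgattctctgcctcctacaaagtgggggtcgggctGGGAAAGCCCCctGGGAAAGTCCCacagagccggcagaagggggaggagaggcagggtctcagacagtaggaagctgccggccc
Glycam1: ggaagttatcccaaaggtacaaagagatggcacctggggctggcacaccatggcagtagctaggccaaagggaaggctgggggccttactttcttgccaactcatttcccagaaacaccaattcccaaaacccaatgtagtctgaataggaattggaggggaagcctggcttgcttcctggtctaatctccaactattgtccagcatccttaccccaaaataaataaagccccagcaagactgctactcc
The letters GGAGATTTG stand in the Cxcl13 promoter at -113 to -105 from the start, and among all 32851 promoters 76 (0.231%) hold them. They were set before the search as those of a described site, and which promoters served to describe it was not checked. The share therefore does not weigh this match. GGGNNNNNCC is common and was found in 15046 (45.8%) of the promoters. It was matched in Cxcl13, Ccl19, Lta, Ltb and Madcam1, and was not matched in Ccl21a, Glycam1 or Chst4. In Cxcl13 a match at -63 to -54 reads on both strands. Ltb and Madcam1 share the 10 letters GGGACTTTCC on the minus strand, at -87 to -78 in Ltb and at -70 to -61 in Madcam1, and 46 (0.14%) of all promoters have this run. The run was picked from the matches found in these genes, so this share does not weigh it either. The Madcam1 match overlaps another on the plus strand at -71 to -62. Further overlapping matches in Ltb, at -40 to -29, lie beyond the part shown. These matches are letters in a window of 250 bases and say nothing about binding.

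In NOD.H-2b LGs, the genes of this group were upregulated at every age at which they could be tested. At 2M, 3 of the 10 genes passed the filter on low counts, and Cxcl13, Ccr7 and Ltb were all called higher in NOD.H-2b, where a gene is called with an adjusted p under 0.05 and at least a 2-fold change (edgeR's quasi-likelihood test, Benjamini-Hochberg over all genes tested). Of all genes tested at 2M, 12.0% were called higher. At 4M and at 6M, 8 genes were tested and all 8 were called higher, against 15.6% of all genes at 4M and 18.8% at 6M. Ccl21a and Madcam1 passed the filter in no comparison. The 3 NOD.H-2b mice lay above the 3 BALB/c mice for 5 genes at 2M, the 3 called and also Ccl19 and Cxcr5, which were not tested, and for 8 genes at 4M and 6M. Among all genes tested, the NOD.H-2b mice lay wholly above the BALB/c mice for 25.3% at 2M, 28.4% at 4M and 31.3% at 6M. A gene near 0 in BALB/c passed the filter through its NOD.H-2b counts alone and had to differ, so these counts describe the genes and do not weigh them against others. In a whole gland, more cells of a type and more RNA per cell cannot be told apart.

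**Figure D1:**
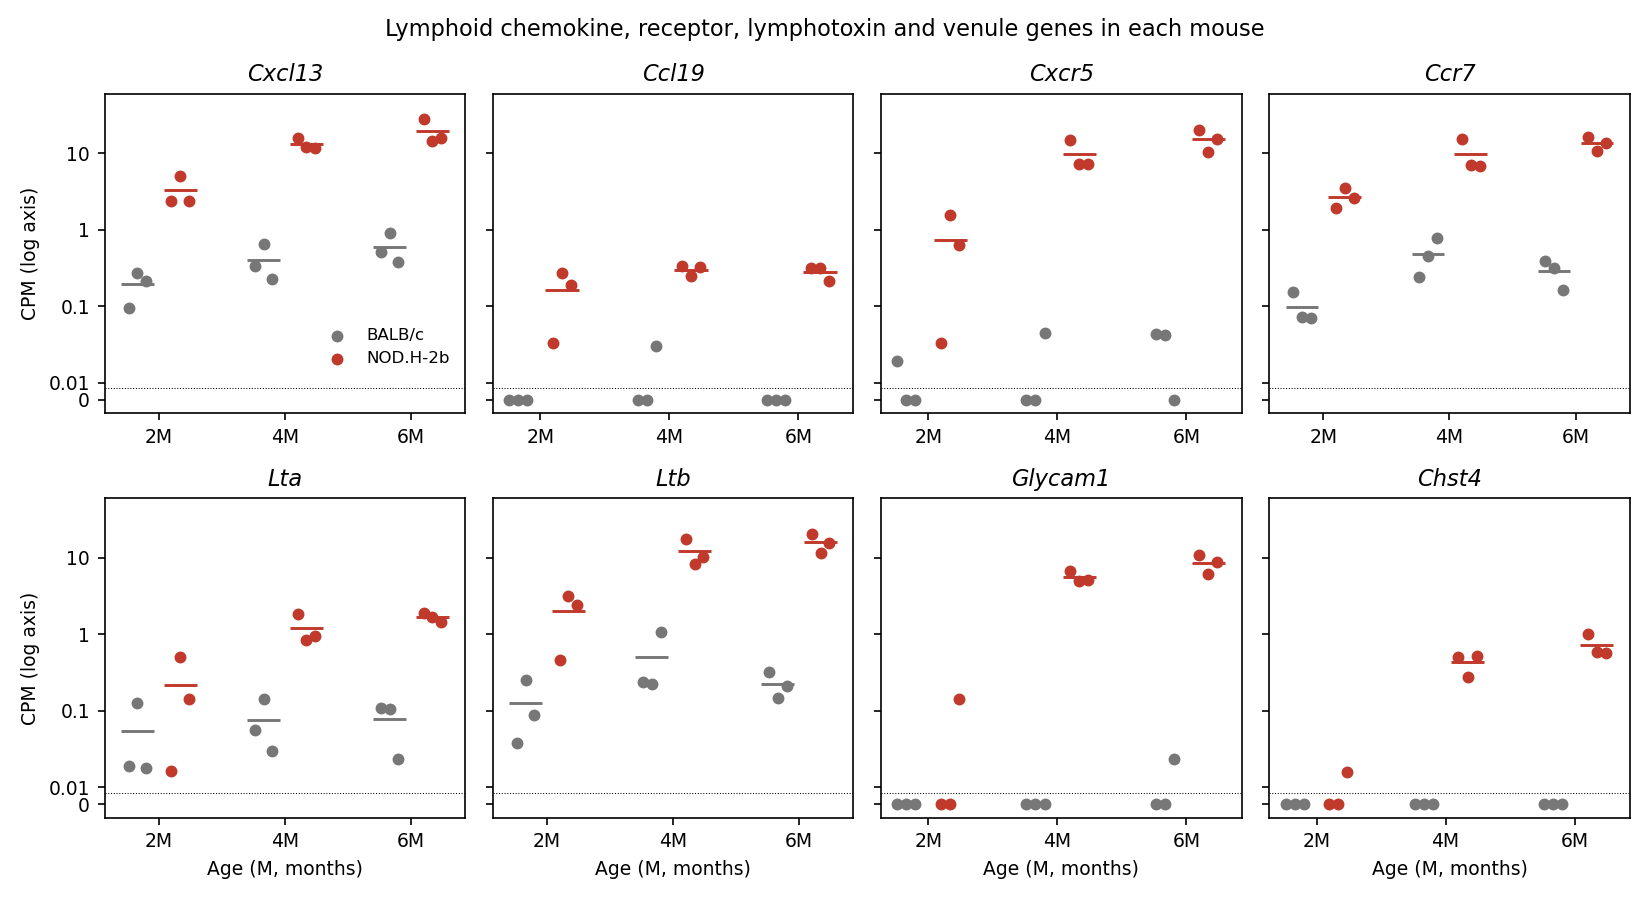
Level of 8 genes in each mouse, in CPM on a log axis (mice with 0 counts are drawn below the dotted line), at 2M, 4M and 6M; grey points are BALB/c, red points NOD.H-2b, and bars are group means where no mouse was at 0. At 4M and 6M every NOD.H-2b point lies above every BALB/c point in all 8 panels, while at 2M the Lta, Glycam1 and Chst4 points overlap.

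Cxcl13, the B cell chemokine, had the highest mean level per length of these genes at each age in both strains, although its range overlapped that of Ltb in every group except BALB/c at 6M. It lies at chr5:95956951-95961068 (GRCm38, plus strand, 4 exons). In BALB/c it had 5, 15 and 12 counts at 2M, 18, 32 and 15 at 4M, and 48, 42 and 16 at 6M. In NOD.H-2b it had 144, 334 and 151 counts at 2M, 1047, 766 and 585 at 4M, and 2156, 821 and 896 at 6M. Every NOD.H-2b mouse was above every BALB/c mouse of any age. The mean level was 3.28 ± 1.57 CPM in NOD.H-2b against 0.192 ± 0.0885 CPM in BALB/c at 2M, and 19.4 ± 7.61 against 0.595 ± 0.269 CPM at 6M (SD, n = 3). The log2 fold change was 4.11 (SE 0.446, adjusted p = 0.000109) at 2M, 5.08 (SE 0.332, adjusted p = 2.1e-05) at 4M and 5.08 (SE 0.404, adjusted p = 6.77e-05) at 6M.

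Ccl19, one of the chemokines for CCR7, was low and was over the floor of 3 counts in NOD.H-2b mice only, at 2M in 2 of the 3. It lies at chr4:42754525-42756577 on the minus strand. The NOD.H-2b mice had 2, 18 and 12 counts at 2M, 22, 16 and 16 at 4M, and 24, 18 and 12 at 6M, whereas the BALB/c mice had none except 2 counts in 4M replicate 3. Set against 3 counts in each BALB/c library, the mean Ccl19 level of NOD.H-2b was higher by at least 3.02-fold at 2M and by at least 5.05-fold at 6M. At 2M this holds for the mean only, since replicate 1 was itself under the floor. At 4M the ratio of the summed counts was 25.5, with a 95% counting interval of 6.72 to 216. It was called at 4M (adjusted p = 0.00133) and 6M (adjusted p = 0.000441), and its fitted fold changes are not given because they depend on the prior count where BALB/c is near 0. Its level is uncertain: of the 939 windows of 75 bases, the read length, in its transcripts, 425 (45.3%) occur unchanged in the transcripts of other genes, all of them Ccl19 copies. The pseudogene Ccl19-ps1 had 8 to 37 counts per NOD.H-2b mouse and 0 in all BALB/c mice. Another copy, Gm12407, had 3 to 49 counts in NOD.H-2b and at most 1 in BALB/c. How the reads of one copy were shared with the others was not tested.

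Ccl21a, the chemokine of lymphatic vessels and T cell zones, had 0 counts in all 18 mice. It lies at chr4:42772860-42773993 on the minus strand, in the same cluster as Ccl19. Of its 796 windows of 75 bases, 488 (61.3%) are shared with other annotated genes, namely Gm21541, Gm13304, Ccl21b and Gm10591, and 308 are its own. These 4 copies also had 0 counts in every mouse. Markers of lymphatic endothelium, a source of this chemokine, were measured at 15.0 to 37.4 CPM summed over 5 genes. Prox1 and Mmrn1 among them were too low to be tested at 2M, at 6M or between any ages of a strain. The sum therefore rests mainly on Lyve1, Flt4 and Reln. These did not change in one direction between the strains, with log2 fold changes of 1.48, -0.73 and -0.35 at 2M, so the sum is no measure of lymphatic endothelium. The treatment of reads that match several genes is not stated in the methods, so a count of 0 here does not show that the transcript was absent. The part of the shared sequence in these zeros was not tested.

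The receptor of Cxcl13, Cxcr5, was almost without counts in BALB/c. Cxcr5 lies at chr9:44511787-44561877 on the minus strand, and 110 of its exon bases overlap Bcl9l on the other strand, so that with an unstated strand setting a few reads may belong to that gene. BALB/c mice had 0 to 4 counts at any age. NOD.H-2b mice had 2, 103 and 40 counts at 2M, 973, 461 and 362 at 4M, and 1541, 582 and 861 at 6M. At 2M replicate 1 was close to the BALB/c mice, while the other two were clearly above them. The ratio of the summed counts was 126 (95% counting interval 22.2 to 5000) at 2M, where the gene was not tested, and 565 (193 to 2740) at 4M. At 6M, where BALB/c had 6 counts in all, the log2 fold change was 8.80 (SE 0.454, adjusted p = 1.52e-06), and at 4M the adjusted p was 0.000122.

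Ccr7, which guides naive and central memory T cells and mature dendritic cells, was also present in BALB/c. It lies at chr11:99144196-99155077 on the minus strand. BALB/c had 8, 4 and 4 counts at 2M, 13, 22 and 52 at 4M, and 36, 15 and 7 at 6M. NOD.H-2b had 118, 231 and 166 counts at 2M, 1004, 447 and 342 at 4M, and 1239, 607 and 771 at 6M. The strains did not overlap at any age, and at 2M all 3 NOD.H-2b mice were well above BALB/c, replicate 1 included. The log2 fold change was 4.80 (SE 0.372, adjusted p = 2.11e-06) at 2M, 4.28 (SE 0.546, adjusted p = 0.00156) at 4M and 5.47 (SE 0.262, adjusted p = 4.25e-07) at 6M.

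The lymphotoxin genes are neighbours inside the H2 complex, Ltb at chr17:35194439-35196320 on the plus strand and Lta at chr17:35203165-35205351 on the minus strand. The strains carry different haplotypes there, and whether reads of the haplotypes were aligned with equal success was not tested. Ltb had 2, 14 and 5 counts in BALB/c at 2M, 13, 11 and 71 at 4M, and 30, 7 and 9 at 6M. NOD.H-2b had 28, 209 and 152 counts at 2M, 1168, 540 and 512 at 4M, and 1546, 664 and 889 at 6M. At 2M replicate 1 of NOD.H-2b was only just above the BALB/c mice, and at 4M replicate 3 of BALB/c stood above the rest of its group. The log2 fold change was 4.01 (SE 0.959, adjusted p = 0.0202) at 2M, 4.51 (SE 0.686, adjusted p = 0.0046) at 4M and 6.03 (SE 0.298, adjusted p = 7.32e-07) at 6M. The call at 2M was lost without BALB/c 2M replicate 1 (adjusted p = 0.0682) and without BALB/c 2M replicate 3 (adjusted p = 0.0969).

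Lta was lower. It had 1 to 10 counts in BALB/c mice of any age and 1, 33 and 9 counts in NOD.H-2b at 2M, so the strains overlapped at 2M. NOD.H-2b had 120, 55 and 47 counts at 4M and 144, 97 and 83 at 6M, all above BALB/c. The log2 fold change was 4.04 (SE 0.557, adjusted p = 0.000333) at 4M and 4.30 (SE 0.391, adjusted p = 1.17e-05) at 6M.

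Of the genes of the venule, Glycam1 and Chst4 appeared in NOD.H-2b between 2M and 4M. Glycam1 lies at chr15:103562759-103565081 on the minus strand. The NOD.H-2b mice had 0, 0 and 9 counts at 2M, 438, 322 and 252 at 4M, and 838, 346 and 495 at 6M. Among the 9 BALB/c mice Glycam1 was at 0 in all but 6M replicate 3, which had 1 count. Glycam1 was thus present in all 3 NOD.H-2b mice from 4M on, and at 2M in replicate 3 alone. At 4M the level in NOD.H-2b was higher by at least 103-fold (adjusted p = 2.84e-06), set against 3 counts in each BALB/c library. At 6M the ratio of the summed counts was 1610, with a 95% counting interval of 289 to 63600 (adjusted p = 5.02e-07).

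Chst4 followed the same course at a lower level. It lies at chr8:110029153-110039740 on the minus strand. The NOD.H-2b mice had 0, 0 and 1 counts at 2M, 33, 18 and 26 at 4M, and 77, 33 and 32 at 6M, and the gene was at 0 in all 9 BALB/c mice. The single count at 2M was in replicate 3, the mouse that also had Glycam1. By the same floor, Chst4 of NOD.H-2b was higher by at least 8.06-fold at 4M (adjusted p = 0.000585) and by at least 12.9-fold at 6M (adjusted p = 0.000101). Madcam1, at chr10:79664559-79668537 on the plus strand, had 0 counts in all mice at 2M and 4M. At 6M it had 0, 2 and 1 counts in NOD.H-2b and 1, 0 and 0 in BALB/c, all under the floor, so no difference was detectable at this depth. Each of its 1436 windows of 75 bases is its own.

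In NOD.H-2b most of these genes rose with age. From 2M to 4M, 4 of 8 tested genes were called higher, against 5.97% of all genes tested. The genes that were not tested at 2M, among them Glycam1 and Chst4 at or near 0 there, passed the filter through the older mice. Glycam1 and Chst4 then had to differ, so the counts from 2M to 4M and from 2M to 6M are a description and are not weighed against the shares of all genes. Cxcl13 rose by a log2 fold change of 2.00 (SE 0.346, adjusted p = 0.0189) and Ccr7 by 1.84 (SE 0.414, adjusted p = 0.0373). Glycam1 was called with an adjusted p of 0.00731, and Chst4 with an adjusted p of 0.00618 and a ratio of summed counts of 81 (95% counting interval 14.1 to 3240). Cxcr5 (log2 fold change 3.69, adjusted p = 0.0632), Ltb (2.58, adjusted p = 0.0732) and Lta (2.42, adjusted p = 0.0959) were higher in all 3 mice at 4M than in any at 2M but did not pass the test, and Ccl19 (0.84, adjusted p = 0.375) overlapped. Of all genes tested, 21.8% were without overlap in this direction. The call of Cxcl13 was lost without NOD.H-2b 2M replicate 3 (adjusted p = 0.0736) and without NOD.H-2b 4M replicate 1 (adjusted p = 0.0543). That of Ccr7 was lost without any one of the 2M mice, with adjusted p of 0.0871, 0.0503 and 0.143 for replicates 1, 2 and 3. Left out, NOD.H-2b 2M replicate 3 took the count from 4 to 2, with Glycam1 and Chst4 called.

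From 2M to 6M, 7 of the 8 tested genes were called higher in NOD.H-2b, against 10.9% of all genes. The log2 fold change was 2.55 (SE 0.461, adjusted p = 0.0126) for Cxcl13, 2.30 (SE 0.246, adjusted p = 0.00112) for Ccr7, 4.30 (SE 0.928, adjusted p = 0.024) for Cxcr5, 2.94 (SE 0.692, adjusted p = 0.0289) for Ltb and 2.88 (SE 0.736, adjusted p = 0.0232) for Lta. Glycam1 (adjusted p = 0.00194) and Chst4 (adjusted p = 0.000655) were called as well. Ccl19 was the exception, with a log2 fold change of 0.72 (SE 0.59, adjusted p = 0.356). Cxcr5, Lta and Ltb lost their calls without NOD.H-2b 2M replicate 3 (adjusted p of 0.0729 to 0.0941) or without any one of the 6M mice (adjusted p of 0.0504 to 0.098), which left 4 genes called, namely Cxcl13, Ccr7, Glycam1 and Chst4.

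Between 4M and 6M no change was called. None of the 8 tested genes passed with edgeR or with DESeq2, and the unadjusted p was under 0.05 for 1 gene with edgeR, Glycam1 (adjusted p = 0.321), and for 3 genes with DESeq2. The background was 0.00555% of all genes, so few genes of any kind passed. The log2 fold changes lay between -0.08 for Ccl19 and 0.75 for Chst4, and Chst4 was the single gene whose mice at 6M were all above those at 4M, against 8.41% of all genes tested. The 3 comparisons of ages within NOD.H-2b share mice with each other, and with the comparisons of the strains.

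In BALB/c, few of the genes had enough counts for a test. From 2M to 4M, Ccr7 was called higher among 3 genes tested, with a log2 fold change of 2.32 (SE 0.557, adjusted p = 0.0192), against a background of 2.07%. With at most 8 counts at 2M, it passed the filter through the 4M mice. This call was lost without BALB/c 2M replicate 2 (adjusted p = 0.0778), 2M replicate 3 (adjusted p = 0.0801) or 4M replicate 3 (adjusted p = 0.0891). From 4M to 6M none of 3 genes was called, with a background of 0.0180%, and none had an unadjusted p under 0.05 with edgeR or DESeq2. From 2M to 6M none of 2 genes was called, with a background of 1.57%, while Cxcl13 (log2 fold change 1.60, SE 0.479, adjusted p = 0.0782) had an unadjusted p under 0.05 with both tools. Without BALB/c 6M replicate 3, Cxcl13 (log2 fold change 1.81, adjusted p = 0.0224) and Ccr7 were called, a count of 2. Ccr7 was not tested in the main fit of these ages. It entered this one with its lowest 6M mouse left out, so its call is a description only.

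A change of the strain difference with age was tested on all 18 mice. Neither from 2M to 4M, with a background of 0.361%, nor from 2M to 6M, with a background of 3.60%, was any of the 8 tested genes called, and none had an unadjusted p under 0.05 with edgeR. DESeq2 gave an unadjusted p under 0.05 for 2 genes at 4M, with none called, and for 3 genes at 6M, with Chst4 called. From 2M to 6M the strain difference changed by a log2 of 0.98 (SE 0.767, adjusted p = 0.418) for Cxcl13, 0.68 (SE 0.876, adjusted p = 0.642) for Ccr7, 2.04 (SE 1.39, adjusted p = 0.347) for Ltb and 2.28 (SE 1.3, adjusted p = 0.245) for Lta. From 2M to 4M the change was 1.01 (SE 0.79) for Cxcl13, -0.49 (SE 0.761) for Ccr7, 0.53 (SE 1.31) for Ltb and 2.04 (SE 1.32) for Lta. With these standard errors, changes as large as those fitted could not be told from 0. For Cxcr5, Glycam1, Chst4 and Ccl19 the test could not be informative, because BALB/c was at or near 0 at the ages compared. Without NOD.H-2b 2M replicate 2, Lta was called at 6M (log2 change 3.74, adjusted p = 0.0371).

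**Figure D2:**
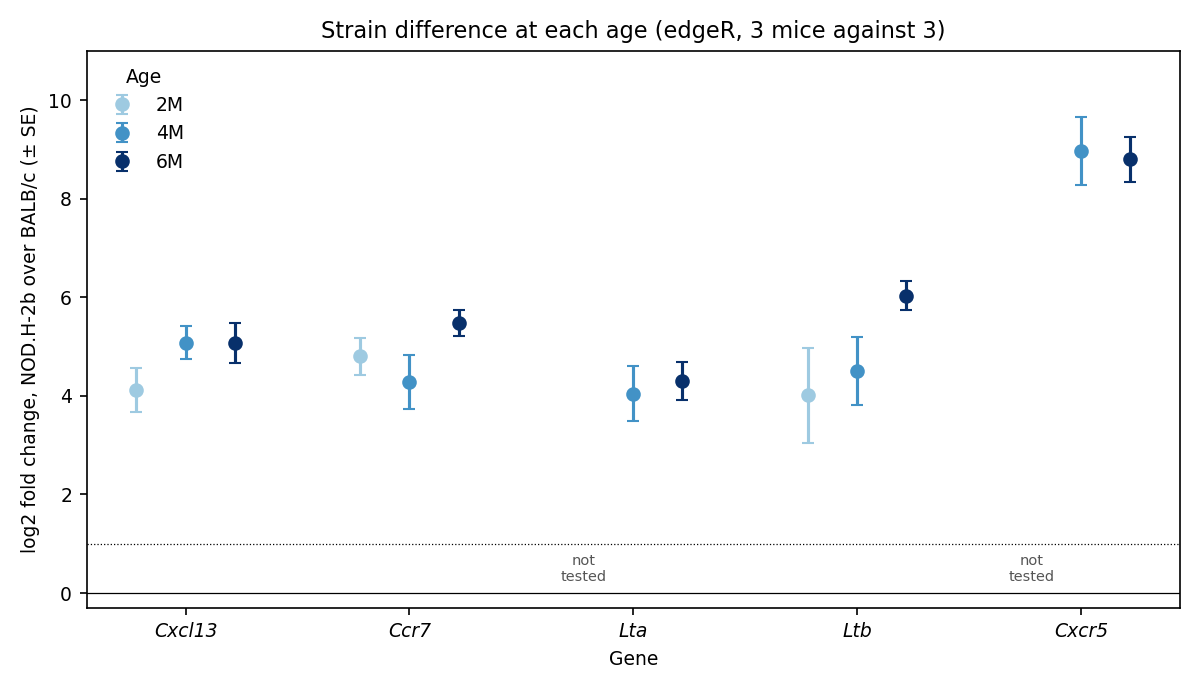
Fitted log2 fold change of NOD.H-2b over BALB/c for 5 genes at 2M, 4M and 6M, from light to dark, with bars for 1 SE and a dotted line at a 2-fold change (n = 3 mice against 3). All fitted values lie above 4, those of Cxcl13 between 4.11 and 5.08, and Lta and Cxcr5 were not tested at 2M. The Cxcr5 value at 4M rests on 3 BALB/c counts in all and lay between 8.44 and 12.11 over the alternatives, which its bar does not cover.

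Per length, the order of the genes changed between 2M and 4M in NOD.H-2b. At 6M the mean level per kilobase of exon was 16.9 ± 6.62 CPM per kb for Cxcl13, 10.4 ± 2.83 for Ltb, 6.80 ± 1.41 for Ccr7, 4.54 ± 1.49 for Cxcr5, 4.01 ± 1.15 for Glycam1 and 1.21 ± 0.155 for Lta. Ccl19 (0.323 ± 0.0692) and Chst4 (0.313 ± 0.111) followed. Neighbours from Cxcl13 down to Glycam1 overlapped in their ranges, whereas Glycam1 and Lta, and Lta and Ccl19, were apart. At 4M the order was the same as at 6M. At 2M Cxcl13 led at 2.85 ± 1.36 CPM per kb and was apart from Ccr7 at 1.36 ± 0.40, but its range overlapped that of Ltb (1.33 ± 0.924). Cxcr5, Ccl19 and Lta came next, each overlapping its neighbour, and Glycam1 (0.0221 ± 0.0383) and Chst4 were near 0. Glycam1 thus stood below Lta in mean level at 2M and above it at 4M and 6M. In BALB/c Cxcl13 had the highest mean at each age, from 0.167 ± 0.0769 CPM per kb at 2M to 0.517 ± 0.234 at 6M, but at 2M and 4M its range overlapped that of Ltb, whose mean at 4M was 0.335 ± 0.315 against 0.349 ± 0.193 for Cxcl13.

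**Figure D3:**
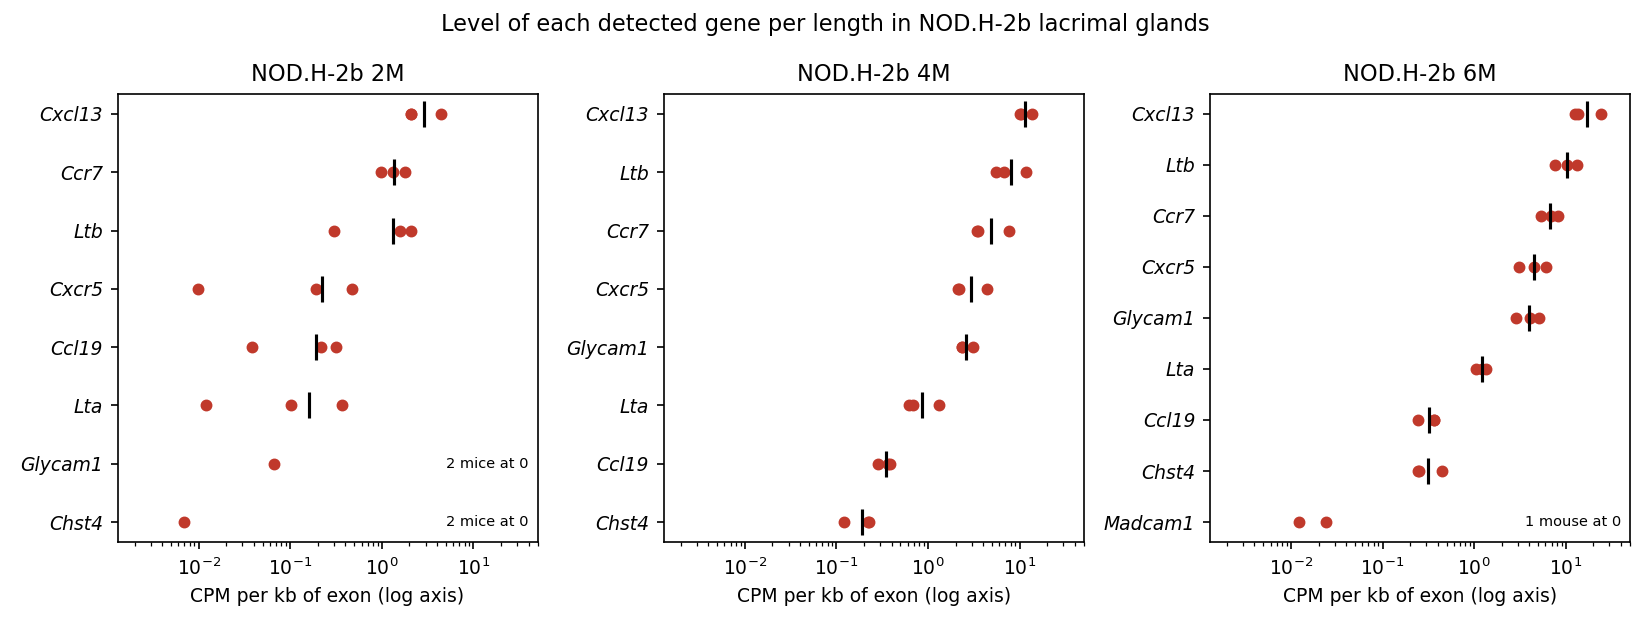
Level of each detected gene in the 3 NOD.H-2b mice at each age, in CPM per kilobase of exon on a log axis, with points for mice, ticks for means where no mouse was at 0, and a note where mice were at 0. Cxcl13 has the highest mean at all ages, with points that overlap those of Ltb, and Glycam1 moves from near 0 at 2M to a mean of 2.60 CPM per kb at 4M.

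The mice of one group differed, and most of the genes differed together. In NOD.H-2b at 2M, replicate 1 was lowest for 6 and replicate 2 highest for 6 of 8 genes compared, and at 4M and at 6M replicate 1 was highest for 7 of 8. The summed level of 8 B cell markers (Ms4a1, Pax5 and others) was 1.73, 28.3 and 12.1 CPM in the NOD.H-2b mice of 2M, 322, 173 and 145 CPM at 4M, and 440, 221 and 288 CPM at 6M, and lay between 0.0529 and 2.75 CPM in BALB/c. That of 8 T cell markers was 9.3, 33.5 and 21.3 CPM, then 126, 72.1 and 70.6 CPM, and then 112, 80.2 and 104 CPM, with 0.406 to 5.98 CPM in BALB/c. The replicate that was highest in both lists was also the one highest for most of the genes at each age. All 8 B cell and all 8 T cell markers were called higher in NOD.H-2b at 6M, against 18.8% of all genes tested.

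In NOD.H-2b 2M replicate 1, the genes did not all follow the B cell markers. There Cxcr5 had 2 counts, Lta 1 and Ltb 28. Cxcl13 had 144 counts, near the 151 of replicate 3, and Ccr7 had 118, below the 166 of replicate 3. Replicate 2 had the most counts of both (334 and 231). NOD.H-2b 2M replicate 1 had B cell markers at 1.73 CPM, above every BALB/c mouse of its own age (0.134, 0.413 and 0.0529 CPM). That was under the highest BALB/c mouse of any age, 6M replicate 2 at 2.75 CPM. The Cxcl13 counts of NOD.H-2b 2M replicate 1 were above the 48 counts of the highest BALB/c mouse. Its T cell markers (9.3 CPM) and dendritic cell markers (20.9 CPM) were above those of every BALB/c mouse, the highest of which had 5.98 and 16.5 CPM. Among BALB/c mice, 4M replicate 3 had the highest Ltb (71 counts) and Ccr7 (52 counts) together with these highest T cell and dendritic cell markers, the latter at 5.62 to 8.88 CPM in the other 8. The part of the number of lymphocytes in these levels was not tested. Of 6 markers of blood endothelium, 1 was called higher at 6M, against 18.8% of all genes tested. It was Pecam1, which leukocytes also carry, and the median log2 fold change over the list was 0.29.

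**Figure D4:**
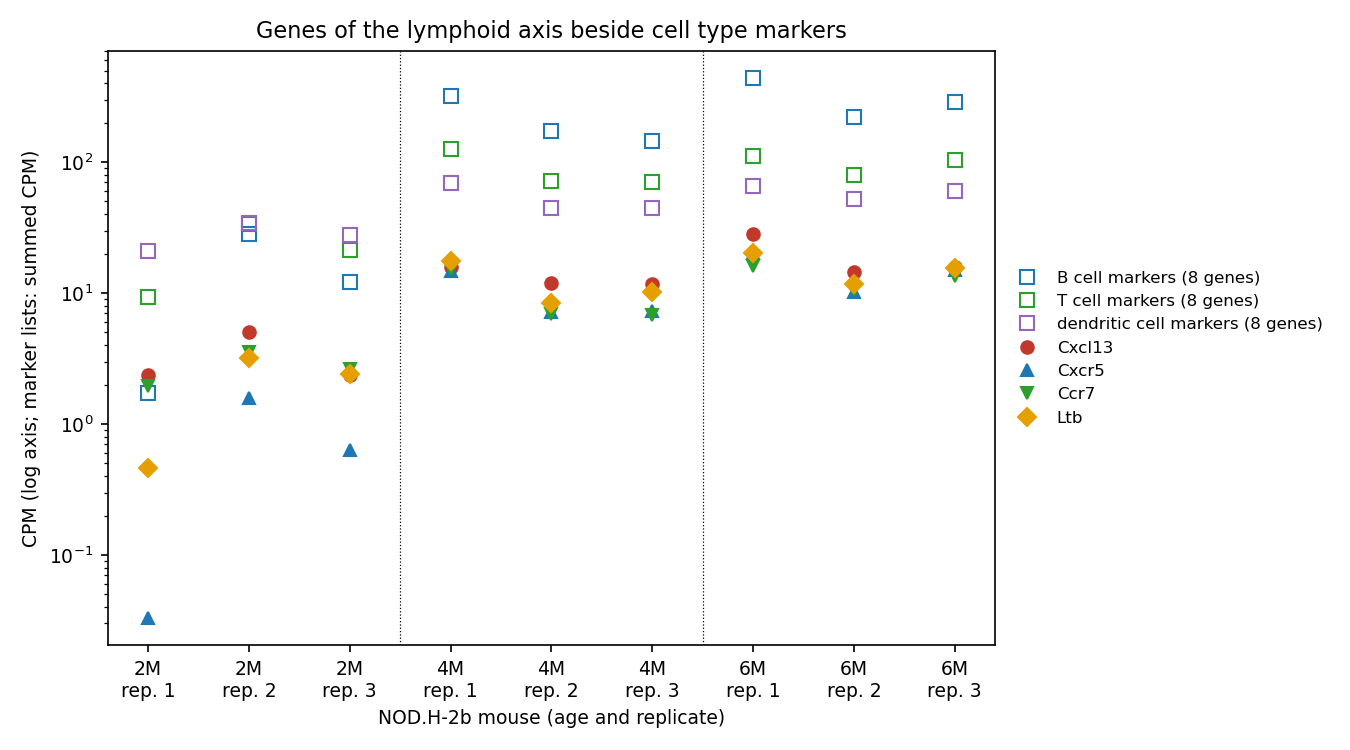
CPM of Cxcl13, Cxcr5, Ccr7 and Ltb and the summed CPM of B cell, T cell and dendritic cell markers for the 9 NOD.H-2b mice, on a log axis; heights can be compared between mice, not between genes. In 2M replicate 1 Cxcr5 and Ltb drop with the B cell markers (1.73 CPM). Cxcl13 (2.37 CPM) stays near its value in 2M replicate 3, and Ccr7 (1.94 CPM) lies below it but drops less than Ltb. Both are highest in 2M replicate 2, at 5.08 and 3.52 CPM.

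Other genes of the same pathway were read from lists. Of all genes tested, 12.0% were called higher in NOD.H-2b at 2M, 15.6% at 4M and 18.8% at 6M. These shares stand beside the counts of every list below, which describe the lists and are not weighed against them. Of the other chemokines, receptors and guidance genes of lymphoid tissue, 4 of 11 tested were called higher in NOD.H-2b at 2M, 5 at 4M and 6 at 6M. The median log2 fold change was 0.73, 0.62 and 1.16 at these ages, and over all genes tested the medians were within 0.01 of 0. The genes with the largest changes at 6M were Ccr6, the receptor of CCL20 on B cells and T cells (log2 fold change 6.67, SE 0.342), Ccl20 (5.94, SE 0.641) and Cxcr4, the receptor of CXCL12 (5.07, SE 0.399). Ccl20 had 0 counts in all BALB/c mice at 2M and 30 to 54 counts in NOD.H-2b. Ackr4, a scavenger of CCL19 and CCL21, was the single gene of the list called lower, at 4M (log2 fold change -1.69, SE 0.477, adjusted p = 0.0167), and was not called at 6M (-0.86, adjusted p = 0.165).

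In the lymphotoxin and NF-κB pathway, 7 of 16 tested genes were called higher at 2M, 8 of 18 at 4M and 9 of 18 at 6M, with none lower and medians of 0.48, 0.79 and 1.00. Relb was called at each age, with log2 fold changes of 2.15, 1.61 and 1.88, as were Map3k14, the gene of the kinase NIK (2.01, 2.09 and 2.50), and Nfkb2 (1.10, 1.19 and 1.44). The receptor of the lymphotoxins, Ltbr, was not called and had a lower level in NOD.H-2b, 15.4 ± 1.55 against 23.0 ± 0.894 CPM at 6M (log2 fold change -0.54, SE 0.0945, adjusted p = 0.000848). The largest changes at 6M were those of Tnfsf11, encoding RANKL, Tnfsf14, encoding LIGHT (log2 fold change 4.74, SE 0.556), and Traf1 (4.73, SE 0.183). Tnfsf11 had 36 to 83 counts per NOD.H-2b mouse at 6M and 0 in BALB/c.

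Of 19 genes for the synthesis of homing ligands and for adhesion at the venule, 10 were called higher at 2M, 14 at 4M and 15 at 6M, with none lower and medians of 1.61, 2.91 and 3.59. Among the largest changes at 6M were those of the glycosyltransferase B3gnt3 (log2 fold change 7.06, SE 0.481) and of Fut7 (4.82, SE 0.754), the fucosyltransferase of the ligand. Vcam1, an endothelial and stromal adhesion molecule, rose from 6.11 ± 1.81 CPM at 2M to 24.5 ± 4.88 CPM at 6M in NOD.H-2b (adjusted p = 0.00408). Its levels in BALB/c were 1.19 ± 0.252 and 1.24 ± 0.30 CPM. The general endothelial genes Cd34, Podxl and Emcn were not called at 6M, with log2 fold changes of 0.26, -0.53 and -0.79.

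Among genes of lymphoid stroma, 4 of 9 tested were called higher at 2M and 5 of 10 at 4M and at 6M, with none lower and medians of 1.25, 1.26 and 1.48. The largest changes at 6M were those of Cr2 and Fcer2a, which mark follicular dendritic cells but also B cells (log2 fold change 7.03, SE 0.421, for Fcer2a), and of Bst1 (3.20, SE 0.34). Cr2 had 1286 to 3782 counts in NOD.H-2b and at most 1 in BALB/c at 6M. Pdpn, Il7 and Pdgfrb were not called at 6M, with log2 fold changes of 0.24, -0.31 and 0.62, and Mfge8 had a log2 fold change of -0.78 (SE 0.0882).

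**Figure D5:**
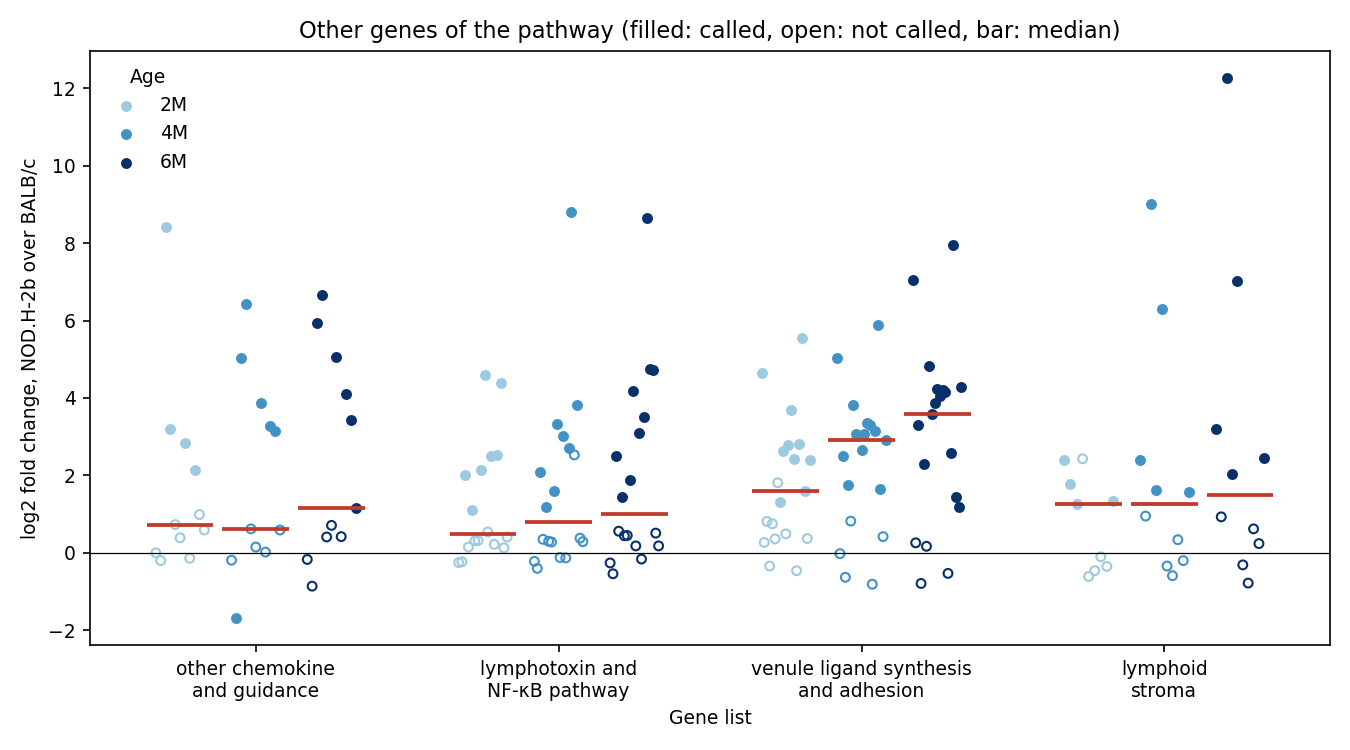
Fitted log2 fold change of NOD.H-2b over BALB/c for each tested gene of 4 lists at 2M, 4M and 6M, from light to dark; filled points were called, open points were not, and red bars are list medians. The venule list has the highest median at each age, reaching 3.59 at 6M, and each list also holds open points near 0.

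The genes with the profile most like that of a member over the 18 mice were found by the root mean square difference of log2 levels around their means. For Cxcl13 they were Cd69 (0.403 on the log2 scale), Gm6545 (0.471) and Pou2f2 (0.496). For Ltb they were Traf3ip3 (0.367), A430078G23Rik (0.374) and Fam169b (0.403), and for Glycam1 they were Col6a4 (0.61), Igkv4-56 (0.622) and Ffar1 (0.694). Col6a4 had 0.191 ± 0.13 CPM in NOD.H-2b at 2M, 4.44 ± 2.36 at 4M and 7.79 ± 2.36 at 6M, and at most 0.032 CPM on average in BALB/c. The profiles share the same mice and libraries, and with 6 groups many genes can be close. Ccl21a, without counts, has no such neighbour.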

How the data were processed

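Total RNA of single LGs was depleted of ribosomal RNA and sequenced as paired reads of 75 bases. After trimming with cutadapt and alignment to GRCm38 with STAR, the authors obtained and deposited raw HTSeq counts per gene, the values used here; their second deposited table, of normalized log2 values, was not used. Annotation release, strand setting and handling of reads with several matches are not given in the sources used here. Loci are those of GENCODE M21.

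The 3 mice of a group were treated as unpaired replicates. In R 4.3.3 with edgeR 4.0.16, groups were compared on the 6 mice concerned, and changes of the strain difference on all 18, with TMM factors, filterByExpr and the robust quasi-likelihood test; called genes changed at least 2-fold with a Benjamini-Hochberg adjusted p, over all tested genes, under 0.05. SE is that of the log2 fold change. CPM used TMM library sizes. A group at 0 was set to 3 counts per library, and ratios of sums with 1 to 3 counts have exact binomial 95% counting intervals. Profile distances used log2 of CPM plus 0.1. All 10 genes are named, with the 3 largest called changes at 6M of each other list, the copies of Ccl19 and Ccl21a, and nearest profiles, except 1 gene that is not reported here; further genes were named after their values were seen. The members and lists were chosen with earlier results of these data known. The fits were tested on simulated data. The alternatives were DESeq2 size factors, total counts, no filter, the Wald test of DESeq2 1.42.0, glmTreat, other sets of mice, the replicate number as a block and each mouse left out.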

Additional observations from a re-analysis of the deposited data

How the results depend on the processing

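Every gene kept its direction under each alternative in which it was called, and all 8 genes tested at 4M and at 6M stayed called in NOD.H-2b against BALB/c under every alternative, with each mouse left out in turn too, at adjusted p of at most 0.0184. At 2M, 1 fit of all 18 mice called 5 genes, adding Ccl19 and Cxcr5, and leaving out mice gave 3 to 5, the 5 without NOD.H-2b 2M replicate 1. The filter was run again for each set of mice, and Ccl19 and Cxcr5 had not passed it in the main fit. Without BALB/c 2M replicate 1 or 3, Ltb lost its call (adjusted p = 0.0682 and 0.0969). Genes not tested in the main fit entered the count there. From 2M to 4M in NOD.H-2b, no filter on low counts gave 2 genes called, DESeq2 gave 7, 1 fit of all 18 mice gave 7, and leaving out mice gave 2 to 5. From 2M to 6M in NOD.H-2b, leaving out mice gave 4 to 7. From 2M to 4M in BALB/c, no filter gave 2, 1 fit of all 18 mice gave 0 and leaving out mice gave 0 to 1. From 2M to 6M in BALB/c, no filter gave 1 and leaving out mice gave 0 to 2. For a larger strain difference at 6M than at 2M, DESeq2 gave 1 and leaving out mice gave 0 to 1. The cause of these changes was not tested. Ltb at 2M lost its call without a filter (adjusted p = 0.0718) and with glmTreat (adjusted p = 0.0911). The replicate numbers were not taken as pairs, since in no comparison were the correlations of deviations of same-numbered mice all over 0.1. In NOD.H-2b they were 0.344, 0.128 and 0.018 between 4M and 6M, and -0.339, -0.116 and 0.0259 between 2M and 4M. This rule does not settle whether the numbers link the mice. With the replicate block, 1 gene was called from 2M to 4M and 4 from 2M to 6M in NOD.H-2b, and the other counts stayed within 1.5 times. With 3 mice a group, depth limits genes at a few counts, and the spread between mice limits the rest.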

Other observations

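Among the markers of vessels, few were called at 6M. The summed level of 6 blood endothelial markers was 59.9 to 76.4 CPM in NOD.H-2b and 32.7 to 37.3 CPM in BALB/c at 6M, while Pecam1 alone of the 6 was called and the median log2 fold change of the list was 0.29. The summed level of 5 lymphatic endothelial markers was 15.0 to 17.2 CPM in NOD.H-2b and 24.4 to 35.5 CPM in BALB/c at 6M, with Reln alone called lower (log2 fold change -1.10), Lyve1 (0.94) and Flt4 (0.47) not called, and Prox1 and Mmrn1 not tested. Of 8 dendritic cell markers, 7 were called higher in NOD.H-2b at 6M, all but Cd209a, against 18.8% of all genes tested. Fscn1, a gene of mature migratory dendritic cells, had a log2 fold change of 4.36.

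The change of the strain difference from 2M to 6M was called for 6 of the 19 genes of the venule list, against 3.60% of all genes tested, among them Chst2, a sulfotransferase of the homing ligand (log2 change 2.51, SE 0.496, adjusted p = 0.00457), and Icam2 (3.78, SE 0.617, adjusted p = 0.00155). It was also called for S1pr1, a receptor for the exit of lymphocytes from tissue (2.46, SE 0.338, adjusted p = 0.000693).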
